A study of Mus musculus with 6 samples.

Results

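Integrins are the receptors through which cells hold on to their surroundings, and laminins are the trimeric glycoproteins that make up much of the basement membrane they hold on to. The 38 protein-coding genes of the mouse that encode an integrin alpha or beta subunit or a laminin alpha, beta or gamma chain were taken by symbol from a table of raw counts for 55401 gene identifiers; binding proteins and the integrin-like gene Itgbl1 were not included. They comprise 18 integrin alpha, 9 integrin beta, 5 laminin alpha, 3 laminin beta and 3 laminin gamma genes. Counts came from ADC106, a mouse angiosarcoma cell line, that is, a single line grown from a malignant tumour of cells that line vessels. One group, with the genotype labelled WT, had been transfected with an NC mimic and the other, labelled as miR-497 overexpression, with an miR-497 mimic. Both mimics were used at 12.5 nM, RNA was collected after 3 days, and each group had 3 libraries of poly(A)-enriched RNA. Nothing in the labels says that the 3 libraries of a group came from separate cultures, so p-values measure only the spread between these libraries. Untransfected cells were not analysed here.

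An integrin is a pair of 1 alpha and 1 beta chain, and the pair decides the ligand. In the endothelium, Itgb1 joins Itga5 to bind fibronectin, Itga3 or Itga6 to bind laminins, and Itga1 or Itga2 to bind collagens, while Itgav joins Itgb3 or Itgb5 to bind ligands with an RGD motif such as vitronectin. A laminin trimer is assembled inside the cell from an alpha, a beta and a gamma chain before it is secreted. The vascular basement membrane holds mostly trimers with the Lama4 or Lama5 chain, together with Lamb1 or Lamb2 and Lamc1, while Lama3 and Lamb3 belong to the laminin of epithelial anchoring structures. The microRNA miR-497 belongs to the miR-15 and miR-16 family and acts by pairing its seed with target mRNAs, mostly in the 3′ UTR, while loaded in Argonaute.

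The guide strand is shown with matched stretches of subunit transcripts because the same word stands in genes that fell, in a gene that rose and in genes that were not called. The first line is the mature mouse miR-497a-5p of 22 bases from RefSeq (GRCm38.p6, chr11:70234730-70234751, plus strand), with the seed at bases 2 to 8 in capitals; the labels do not give the sequence of the mimic itself. The other lines are from the longest annotated 3′ UTR of each gene in GENCODE M21 (GRCm38), 5′ to 3′ in the sense of the transcript, with the matched word in capitals. The words searched on the transcript strand were TGCTGCT, which becomes an 8mer when an A follows (TGCTGCTA), and GCTGCTA.
mmu-miR-497a-5p: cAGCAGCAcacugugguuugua
Lamc1, fell, chr1:153221370-153221376, minus strand: cacttctcTGCTGCTctccatca
Itgav, fell, chr2:83804154-83804178, plus strand: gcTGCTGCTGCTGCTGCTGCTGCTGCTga
Itgb8, fell, chr12:119161479-119161485, minus strand: cctcagttTGCTGCTctccagca
Itgb8, fell, chr12:119161225-119161231, minus strand: tcctacttTGCTGCTcagaatag
Itgb1, not called, chr8:128733006-128733012, plus strand: agctgtccTGCTGCTtgcaggac
Itga2, not called, chr13:114835880-114835886, minus strand: tcaatttaTGCTGCTcctcaaag
Itga2, not called, chr13:114835264-114835271, minus strand: gtttcattTGCTGCTAaacaagta
Itga1, rose, chr13:114955557-114955563, minus strand: caagctgaTGCTGCTttaaaatt
In Itgav the capitals span 7 overlapping copies of the word in 1 run of repeated TGC triplets.

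Values are listed in the order of libraries 1 to 3 of each group. The 6 libraries held 25777676 to 36159499 counts, with Pearson correlations of log2 CPM (counts scaled to library size) across genes of 0.993 to 0.995 for libraries of 1 group and 0.974 to 0.979 across the groups. Every pair of libraries differed by more than sampling noise, the chi-square statistic per degree of freedom being at least 7.64. All 15 endothelial markers listed were tested, led by Pecam1, Cdh5 and Kdr, and their summed level was 10781 to 11502 CPM with NC and 10420.3 to 10894 CPM with miR-497. Single markers of this list moved both ways, with 7 of the 15 higher and 5 lower, next to 23.8% and 26.0% of all tested genes. Pecam1 had a log2 fold change of -0.52 and Egfl7 of -0.94, while Emcn had 1.03 and Cldn5 1.02. Of 12 leukocyte markers, 10 had a mean below 1 CPM and 3, among them Cd3e and Tyrobp, had no counts, with sums of 14.8 to 16.6 CPM with NC and 20.2 to 26.0 CPM with miR-497. Cd68 was the only leukocyte marker called (8.25 ± 0.197 to 17.5 ± 2.39 CPM), and without it the sums were 6.41 to 8.24 CPM with NC and 5.38 to 6.92 CPM with miR-497. The 8 platelet markers summed to 4.40 to 6.0 and 5.77 to 7.11 CPM (Gp6 and Treml1 without counts). The 9 epithelial markers summed to 2.49 to 4.86 and 2.13 to 5.73 CPM, with 8 of them below 1 CPM. For 10 markers of mural cells and fibroblasts the sums were 209.5 to 221 CPM with NC and 263 to 310.4 CPM with miR-497; Lum had no counts, and of the 8 tested Col1a1 and Acta2 were higher and Pdgfrb was lower. Without Col1a1 and Acta2, left out after their values were seen, the sums were 112 to 123 CPM with NC and 92.8 to 118 CPM with miR-497. In bulk RNA, fewer cells of a type and less RNA per cell cannot be told apart.

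Of the 38 subunit genes, 31 had enough counts to be tested. The miR-497 libraries were higher for 11 of them and lower for 5 by edgeR's quasi-likelihood test (Benjamini-Hochberg adjusted p under 0.05 over all 14661 genes tested), and 15 were not called. That is 51.6% of the tested subunits, next to 49.8% of all tested genes, so the share of changed genes is near the background. By direction, 35.5% were higher and 16.1% lower, next to 23.8% and 26.0% of all genes. The median log2 fold change was 0.07 for the subunits and -0.02 for all tested genes. Most changes were small: 3 subunits rose and 2 fell by at least 2-fold, next to 3.63% of all genes higher and 5.19% lower by as much, and 4 of these 5 (Itgal, Lamb3, Lama3 and Itgb8) had a mean log2 CPM under 2. The 3 values of 1 group lay wholly on 1 side of the other for 17 subunits, 54.8%, next to 57.4% of all genes. Being filtered on counts, the 31 tested subunits are not the whole family, and no test of the list was made. Itgal and Itgb8 passed the filter only through the group where they were high, so their place among the subunits called follows partly from the filter.

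**Figure D1:**
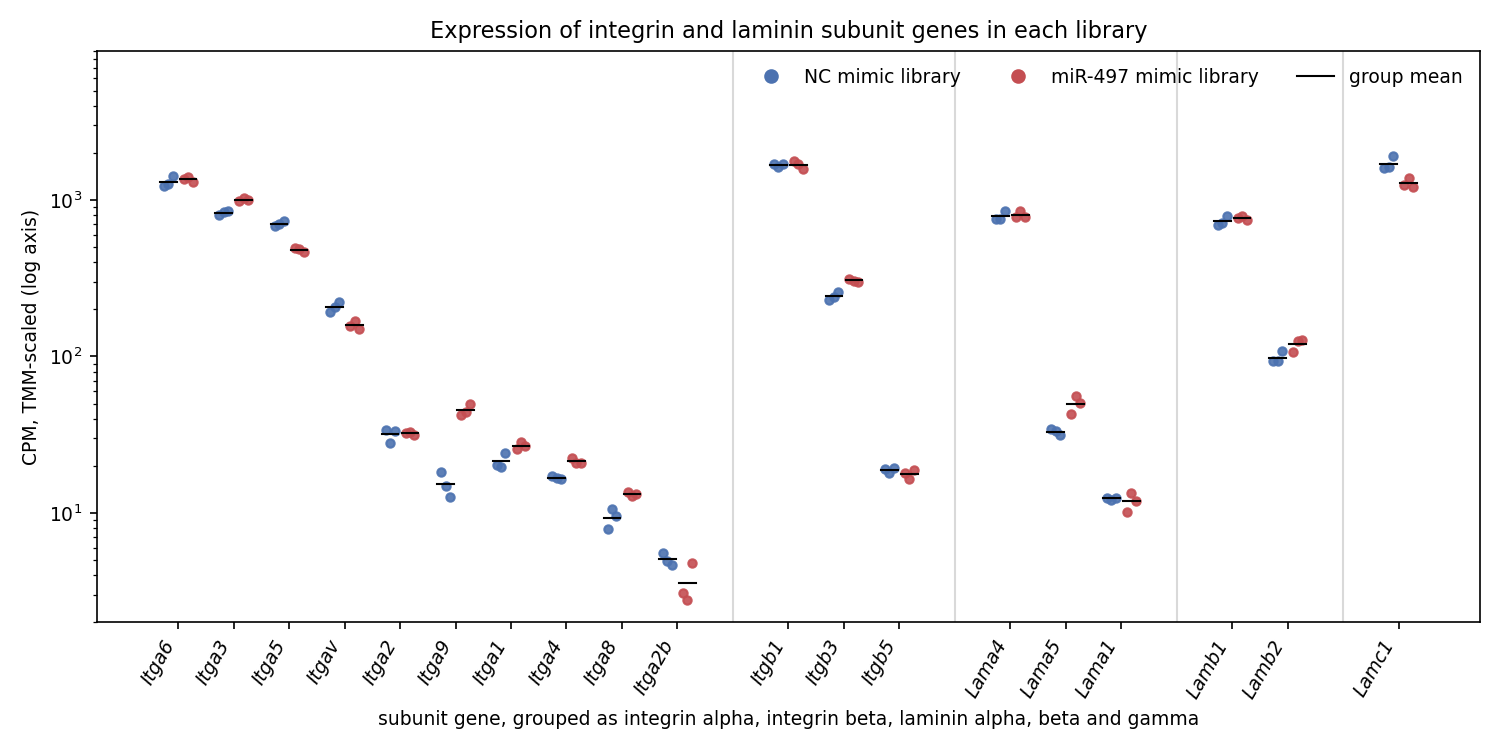
Level of 19 of the 20 subunit genes with a mean log2 CPM of at least 2, in CPM scaled by TMM on a log axis, with 1 point for each of the 3 NC and 3 miR-497 libraries and a bar at the group mean. Itga5, Itgav and Lamc1 lie lower in all 3 miR-497 libraries, and Itga9 lies higher in all 3 by a fitted fold change of 2.97.

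Among integrins that bind laminin, Itga3 (ENSMUSG00000001507, chr11:95044474-95076801) rose and Itga6 did not pass the test. Itga3, the alpha chain of a receptor for laminins that carry Lama5 or Lama3, had 801, 832 and 854 CPM in the NC libraries and 982, 1034 and 1005 CPM in the miR-497 libraries. All 3 miR-497 values lay above all 3 NC values, and the fold change was 1.21 (log2 fold change 0.28, SE 0.0542, edgeR adjusted p = 0.00035). Itga6, which pairs with Itgb1 or Itgb4, had 1221, 1273 and 1415 CPM in the NC libraries and 1367, 1400.3 and 1305 CPM in the miR-497 libraries. These values overlap, with NC library 3 the highest of all 6 (log2 fold change 0.06, SE 0.0632, edgeR adjusted p = 0.46). Itga7, a laminin receptor chain known from muscle, was low at 0.924 to 2.51 CPM and was not called (edgeR adjusted p = 0.5).

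The 2 most abundant alpha chains for RGD ligands both fell. Itga5 (ENSMUSG00000000555, chr15:103344286-103366763), the alpha chain of the main fibronectin receptor, had 685, 707 and 731 CPM in the NC libraries and 490.3, 489 and 468 CPM in the miR-497 libraries. The groups do not overlap, and the NC mean was 1.47 times the miR-497 mean as fitted (log2 fold change -0.55, SE 0.0532, edgeR adjusted p = 2.2e-07). Itgav (ENSMUSG00000027087, chr2:83724397-83806916), the alpha chain shared by the vitronectin receptors, had 192, 208 and 223 CPM in the NC libraries and 157, 169 and 149 CPM in the miR-497 libraries. Again every miR-497 value lay below every NC value (log2 fold change -0.39, SE 0.0633, edgeR adjusted p = 6.8e-05). Genes on the other strand overlap 5.90% of its exon sequence, and the strand setting of the counting is not given in the sources used here. Itga8, whose pair with Itgb1 binds nephronectin, rose from a low level: it had 7.93, 10.5 and 9.52 CPM in the NC libraries and 13.6, 12.9 and 13.2 CPM in the miR-497 libraries (log2 fold change 0.50, SE 0.123, edgeR adjusted p = 0.0026). For Itga8 such overlap is 5.05%. Itga2b, the platelet alpha chain, had 5.52, 4.93 and 4.65 CPM in the NC libraries and 3.06, 2.77 and 4.79 CPM in the miR-497 libraries and was not called (log2 fold change -0.51, SE 0.222, edgeR adjusted p = 0.069). Only miR-497 library 3 reached the NC range, and without that library Itga2b was called lower (log2 fold change -0.79, edgeR adjusted p = 0.0076). The other fits with a library left out did not call it, and its log2 fold change there was as weak as -0.35.

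The largest well-measured change among all subunits was the rise of Itga9 (ENSMUSG00000039115, chr9:118606690-118901003). Itga9, whose pair with Itgb1 binds tenascin and other ligands and is needed for valves of lymphatic vessels, had 18.1, 14.9 and 12.7 CPM in the NC libraries and 42.2, 44.1 and 49.8 CPM in the miR-497 libraries. The groups stood far apart (log2 fold change 1.57, SE 0.107, edgeR adjusted p = 3.6e-09), and the fold change was 2.97. Its closest relative, Itga4, whose pair with Itgb1 binds Vcam1 and fibronectin, had 17.2, 16.8 and 16.4 CPM in the NC libraries and 22.6, 21 and 20.8 CPM in the miR-497 libraries. This smaller rise also left no overlap (log2 fold change 0.35, SE 0.0862, edgeR adjusted p = 0.0025). Overlap with genes on the other strand is 8.04% for Itga4.

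Among the collagen-binding chains, Itga1 rose and Itga2, Itga10 and Itga11 were not called. Itga1 had 20.2, 19.7 and 24.2 CPM in the NC libraries and 25.7, 28.3 and 26.6 CPM in the miR-497 libraries, with no overlap between groups (log2 fold change 0.34, SE 0.0911, edgeR adjusted p = 0.0055). Itga2 had 34.1, 28.0 and 33.4 CPM in the NC libraries and 32.3, 32.7 and 31.6 CPM in the miR-497 libraries, and the miR-497 values lay within the NC range (log2 fold change 0.02, SE 0.0808, edgeR adjusted p = 0.87). Itga10 was at 1.78 to 3.77 CPM and Itga11 at 0.931 to 1.36 CPM over the 6 libraries, with edgeR adjusted p-values of 0.29 and 0.94.

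Integrin chains of blood cells had few counts or none. Itgam, Itgad and Itgb2l, which belong to myeloid cells, had no counts in any library, where 3 counts would correspond to 0.0821 to 0.119 CPM. Itgax had 0 to 5 counts and Itgb2 had 0 to 8 counts per library, and neither was tested. Itgal, a partner of Itgb2 in leukocytes, had 5, 7 and 1 counts in the NC libraries and 10, 18 and 14 in the miR-497 libraries. It was called higher (log2 fold change 1.84, SE 0.617, edgeR adjusted p = 0.02), with 42 counts in all with miR-497 against 13 with NC, a ratio of 3.62 after scaling (95% exact counting interval 1.90 to 7.34). The interval covers counting error only. Itgal passed the count filter only through the miR-497 libraries, where it was high. Neither the interval nor the call is therefore independent support for a rise. This call was lost without NC library 3 (edgeR adjusted p = 0.093) and without miR-497 library 2 (edgeR adjusted p = 0.081). Of the leukocyte markers Cd68 rose, and the sums of the others overlapped between groups, as given above. Itgae, a chain of mucosal lymphocytes, was at 2.08 to 2.87 CPM with NC and 1.35 to 1.80 CPM with miR-497, and its partner Itgb7 at 0.604 to 0.754 and 1.07 to 1.59 CPM. The groups do not overlap for either gene, but neither passed the test (edgeR adjusted p = 0.077 and 0.072).

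Of the 6 tested beta chains, Itgb3 rose, Itgb8 fell and 4 were not called. Itgb1 (ENSMUSG00000025809, chr8:128685654-128733200), the common partner of most alpha chains named above, had 1691, 1620.0 and 1700.1 CPM in the NC libraries and 1779.6, 1705 and 1568 CPM in the miR-497 libraries. The values overlap and the fitted change was near 0 (log2 fold change 0.01, SE 0.0608, edgeR adjusted p = 0.89). Itgb3, the partner of Itgav in the vitronectin receptor, had 228, 241 and 258 CPM in the NC libraries and 313, 305 and 300.4 CPM in the miR-497 libraries. Every miR-497 value lay above every NC value (log2 fold change 0.34, SE 0.0554, edgeR adjusted p = 7.5e-05), which is the opposite direction to Itgav. Itgb5, another partner of Itgav, had 19.2, 18.0 and 19.3 CPM in the NC libraries and 18.0, 16.4 and 18.7 CPM in the miR-497 libraries and overlapped between groups (log2 fold change -0.09, SE 0.0907, edgeR adjusted p = 0.46).

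Itgb8, whose pair with Itgav activates latent TGF-beta, had few counts and the lowest fold change of all subunits. It had 25, 24 and 17 counts in the NC libraries and 2, 6 and 2 in the miR-497 libraries. All 3 miR-497 libraries were lower (log2 fold change -2.52, SE 0.583, edgeR adjusted p = 0.0017), with 10 counts in all with miR-497 against 66 with NC, a ratio of 0.170 after scaling (95% exact counting interval 0.0777 to 0.332). That interval covers counting error only. Itgb8 passed the count filter only through the NC libraries, where it was high. Its call and interval are therefore no independent support for a fall. Without miR-497 library 2 the log2 fold change was -3.15. Itgb4, the partner of Itga6 in hemidesmosomes, was at 1.42 to 2.59 CPM with NC and 0.915 to 1.61 CPM with miR-497 and was not called (edgeR adjusted p = 0.15), and genes on the other strand overlap 7.66% of its exon sequence. Itgb6, a beta chain of epithelia, had 0 to 11 counts per library and was not tested.

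**Figure D2:**
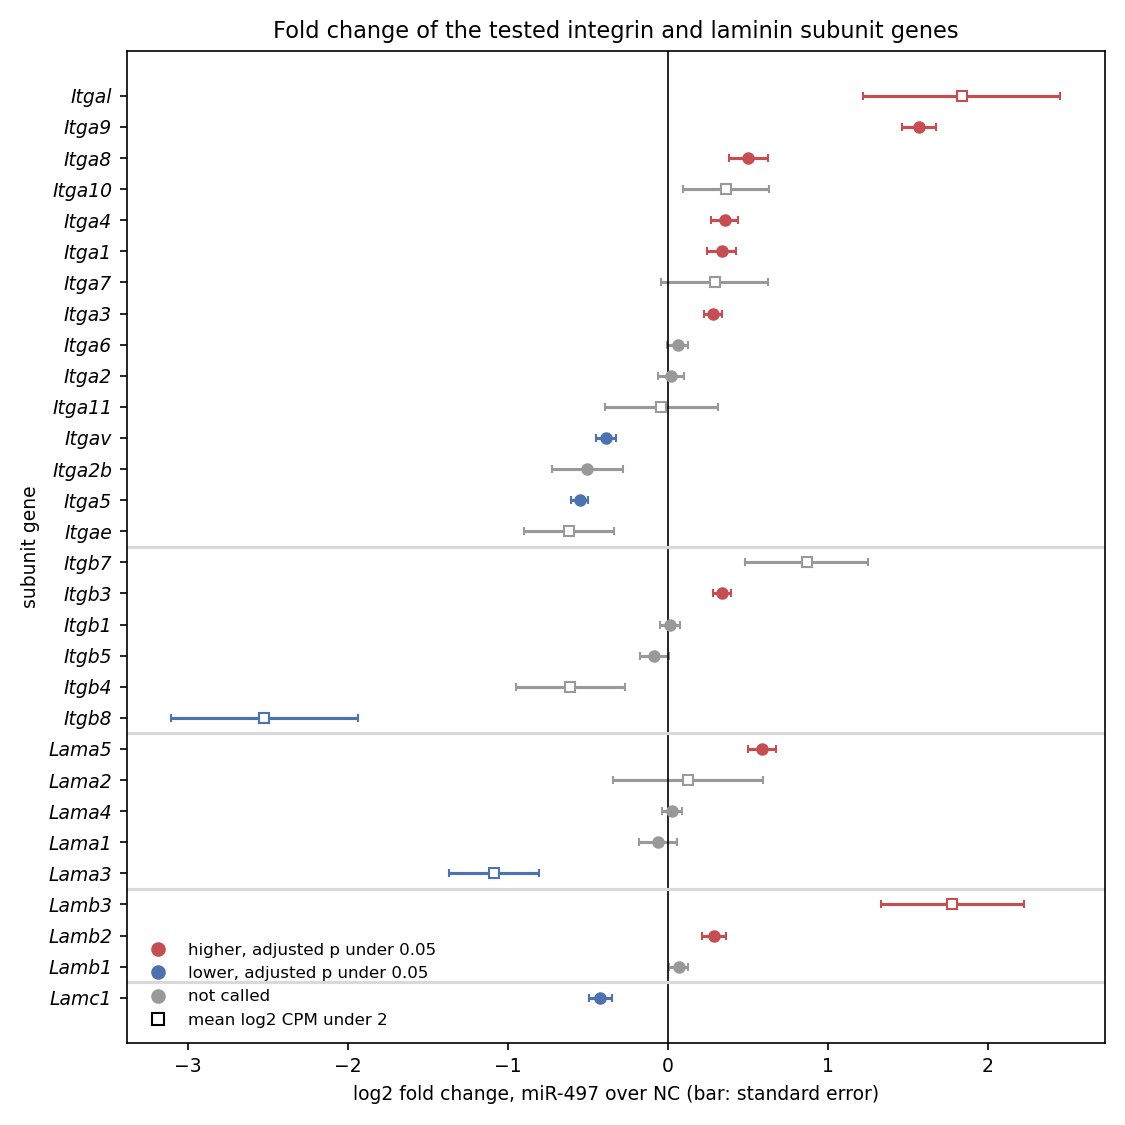
Log2 fold change of miR-497 over NC with its standard error for 30 of the 31 tested subunit genes, ordered within integrin alpha, integrin beta, laminin alpha, laminin beta and laminin gamma; colour marks the call and open squares mark genes with a mean log2 CPM under 2. Changes beyond 1 on the log2 scale are found for Itga9 and for 4 genes drawn as open squares.

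Among laminin chains Lamc1 fell, while Lama4 and Lamb1, the most abundant alpha and beta chains, did not pass the test. Lamc1 (ENSMUSG00000026478, chr1:153218922-153332786), present in most laminins, had 1607, 1627 and 1900.1 CPM in the NC libraries and 1242, 1384 and 1203 CPM in the miR-497 libraries. The groups do not overlap, although NC library 3 stood above the other two NC libraries (log2 fold change -0.42, SE 0.0728, edgeR adjusted p = 0.00012). Lama4, the alpha chain typical of endothelial basement membranes, had 759, 752 and 853 CPM in the NC libraries and 778, 856 and 774 CPM in the miR-497 libraries. Its values overlap (log2 fold change 0.03, SE 0.0634, edgeR adjusted p = 0.75). Lamb1 had 693, 709 and 793 CPM in the NC libraries and 766, 788 and 745 CPM in the miR-497 libraries, and it overlaps as well (log2 fold change 0.07, SE 0.0601, edgeR adjusted p = 0.38).

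The other vascular alpha chain and the other abundant beta chain were higher with miR-497. Lama5 (ENSMUSG00000015647, chr2:180176373-180225859), the other alpha chain of vessel walls, had 34.6, 33.2 and 31.4 CPM in the NC libraries and 43.2, 55.5 and 50.5 CPM in the miR-497 libraries. There was no overlap (log2 fold change 0.59, SE 0.0862, edgeR adjusted p = 2.3e-05). Lamb2, a beta chain of mature vessels, muscle and kidney, had 92.9, 93.0 and 109 CPM in the NC libraries and 106, 125 and 127 CPM in the miR-497 libraries. Its lowest miR-497 value lay below its highest NC value, so the groups overlap, and the call rests on the fitted means (log2 fold change 0.29, SE 0.0750, edgeR adjusted p = 0.0044). Lama1, an early embryonic chain, had 12.5, 12.2 and 12.5 CPM in the NC libraries and 10.2, 13.3 and 12 CPM in the miR-497 libraries and was not called (log2 fold change -0.06, SE 0.117, edgeR adjusted p = 0.69). Lama2, the chain of muscle, had 13 to 26 counts per library and was not called either (edgeR adjusted p = 0.85).

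The epithelial chains Lamb3 and Lama3 moved in opposite directions. Lamb3 had 25, 17 and 5 counts in the NC libraries and 42, 45 and 55 in the miR-497 libraries, higher in all 3 miR-497 libraries (log2 fold change 1.78, SE 0.448, edgeR adjusted p = 0.0033). This came to 142 counts in all with miR-497 against 47 with NC, a ratio of 3.38 after scaling (95% exact counting interval 2.42 to 4.81). Lama3 went the other way without overlap, with 89, 109 and 66 counts in the NC libraries and 29, 37 and 44 in the miR-497 libraries (log2 fold change -1.09, SE 0.279, edgeR adjusted p = 0.0037). Its sums were 110 counts in all with miR-497 against 264 with NC, a ratio of 0.466 after scaling (95% exact counting interval 0.370 to 0.585). The intervals of Lamb3 and Lama3 cover counting error only and not the spread between libraries. Both chains were far below their abundant relatives in level per length, with 0.0704 ± 0.0436 CPM per kb for Lamb3 and 0.249 ± 0.0298 CPM per kb for Lama3 in NC libraries (SD, n = 3). Lamc3 had 0 to 6 counts per library and was not tested.

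Levels of different subunits were compared per kilobase of merged exons. In NC libraries Itgb1 had the highest level at 409 ± 10.8 CPM per kb (SD, n = 3), followed by Lamc1 at 207 ± 19.8. Next came Itga3 at 145 ± 4.62, Itga6 at 144 ± 11.1 and Itga5 at 143 ± 4.63 CPM per kb, which do not differ beyond their spread. Lamb1 at 73.8 ± 5.40 and Lama4 at 65.3 ± 4.70 CPM per kb came after them. Itgb3 had 41.0 ± 2.53, Itgav 19.3 ± 1.46 and Lamb2 16.2 ± 1.52 CPM per kb. The order depends on the length used: per kilobase of the longest transcript, Itga6 stood at 302, Itga3 at 171 and Itga5 at 160.3 CPM per kb, and Lama4 at 130.3 and Lamb1 at 126. The order of these chains is therefore not settled, while a fold change between groups does not use the length.

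The make-up of the alpha-chain pool shifted from Itga5 towards Itga3. Of the summed alpha-chain level per kb, Itga5 went from 30.9% ± 0.418 with NC to 21.4% ± 0.397 with miR-497 (SD, n = 3), and Itga3 from 31.3% ± 0.508 with NC to 38.6% ± 0.738 with miR-497. Itga9 took 0.429% ± 0.0957 and 1.29% ± 0.133, so it remained a minor chain. Of the beta chains, Itgb1 held 89.7% ± 0.476 and 87.7% ± 0.541. These shares are of RNA, depend on the length used and do not measure assembled protein.

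**Figure D3:**
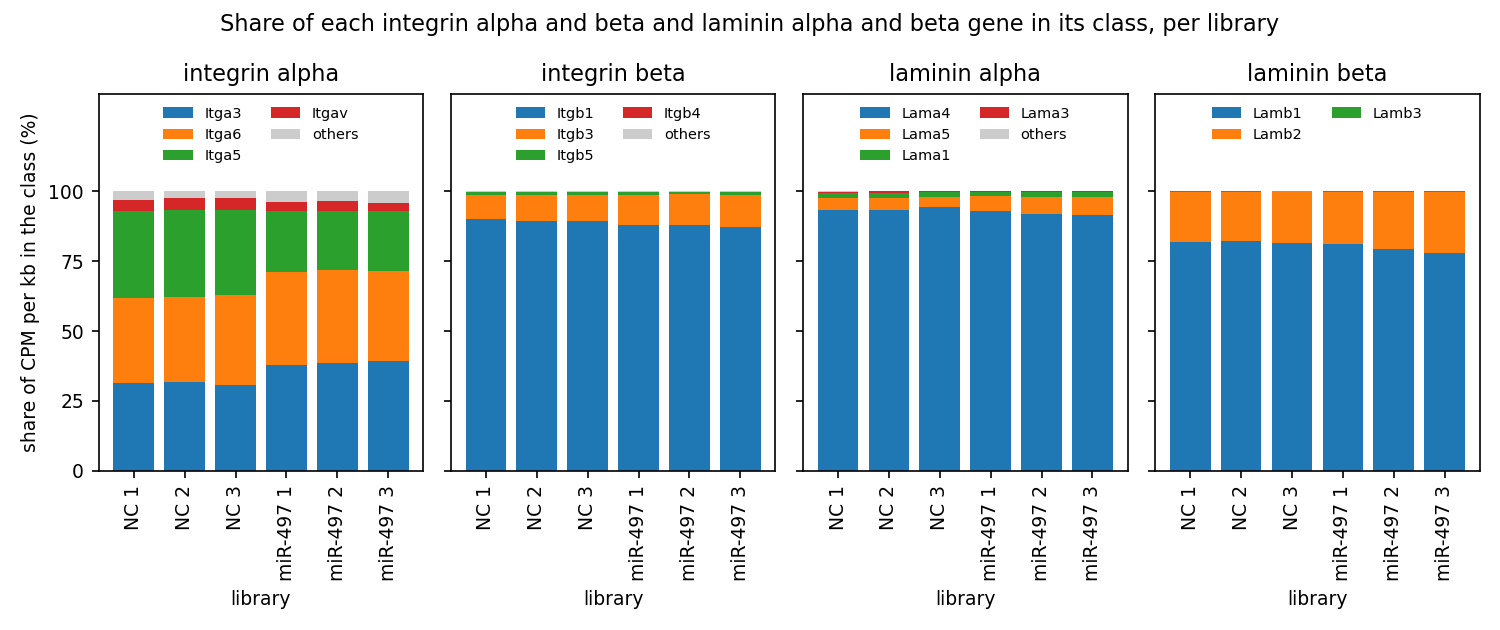
Share of each integrin alpha and beta and laminin alpha and beta gene in the summed CPM per kb of its class, in percent, for the 3 NC and the 3 miR-497 libraries; the 4 chains with the largest share are coloured and the others are grey. Itga5 takes 30.4% to 31.2% of the alpha chains in NC libraries and 21.2% to 21.9% in miR-497 libraries.

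Known partners were also compared as a ratio within each library. The level per kb of Itga5 over Itgb1 was 0.335, 0.361 and 0.356 with the NC mimic against 0.228, 0.238 and 0.247 with the miR-497 mimic. For Itgav over Itgb3 it was 0.462, 0.474 and 0.475 with the NC mimic against 0.275, 0.305 and 0.273 with the miR-497 mimic. Neither ratio overlaps between groups, and both were lower with the miR-497 mimic. Itga3 over Itgb1 was 0.339, 0.367 and 0.359 with the NC mimic against 0.394, 0.433 and 0.458 with the miR-497 mimic. Itga9 over Itgb1 was 0.00569, 0.00489 and 0.00396 with the NC mimic against 0.0126, 0.0137 and 0.0168 with the miR-497 mimic. Both of these were higher in all 3 miR-497 libraries. For Itga6 over Itgb1 the ratio was 0.326, 0.355 and 0.376 with the NC mimic against 0.347, 0.371 and 0.376 with the miR-497 mimic, and these do overlap. Lama4 over Lamc1 was 0.324, 0.317 and 0.308 with the NC mimic against 0.430, 0.424 and 0.441 with the miR-497 mimic, and Lamb1 over Lamc1 was 0.360, 0.363 and 0.348 with the NC mimic against 0.515, 0.475 and 0.516 with the miR-497 mimic. Lama4 and Lamb1 were thus higher relative to Lamc1 in all 3 miR-497 libraries, where Lamc1 was lower and neither Lama4 nor Lamb1 was called. All these ratios use the same levels as the single-gene results and are no separate evidence.

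Matches to the miR-497-5p seed were then set beside the fold changes. Of the 38 subunits, 10 had a 7mer or 8mer in the longest 3′ UTR, and among the 31 tested subunits 9 did, or 29.0%, next to 28.1% of the 12859 tested genes with an annotated 3′ UTR. Of these 9, Lamc1, Itgav and Itgb8 fell, Itga2, Itga10, Itgb1 and Itgb4 were not called, and 2, Itga1 among them, rose. That is 33.3% lower and 22.2% higher, next to 26.0% and 23.8% of all tested genes. This background mixes genes with and without a match, so it cannot show whether matched subunits moved like other matched genes. Of the 22 tested subunits without a match, 9.09% were lower and 40.9% higher, and the difference was not tested. Itgb8, with a match, and Itgal, without one, passed the count filter only through the group where they were high. An 8mer was found in Itga2, which was not called; an 8mer was present in 4.61% of tested genes with a 3′ UTR. The other 2 subunits that fell, Itga5 and Lama3, had no such word in the 3′ UTR, whose longest form is 983 and 350.0 bases long. The 3′ UTRs of Lama4, Lama5, Lamb1 and Lamb2 span only 110.0 to 174 bases, and in tested genes with a 3′ UTR under 400 bases such a word was present in 5.96%.

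The match in Itgav lies 819 to 843 bases after the stop codon and that in Lamc1 97 to 103 bases after it. The shortest annotated 3′ UTRs of these 2 genes, of 82 and 1134 bases in other transcripts, hold no match, and the counts do not tell the transcripts apart. Coding matches were counted only in the transcript with the longest 3′ UTR, which need not hold the longest coding sequence of the gene. There the same words were found 3 times in Itga5, 6 times in Itgav, and 1 time each in Lamc1, Lama3 and Itgb8. They were also present in Itga3 (3 times), Itga9 (2 times) and Lama5 (3 times), which rose. Coding matches were present in 23 of the 30 tested subunits with at least 2000 coding bases in that transcript, 76.7%, next to 59.7% of tested genes above the same cut. Itga7, with 386 coding bases in the transcript used, fell below it. The cut is only a lower bound, so the shares are not matched for coding length and cannot show an excess of matches. A match describes the sequence and not whether the mimic acts there.

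**Figure D4:**
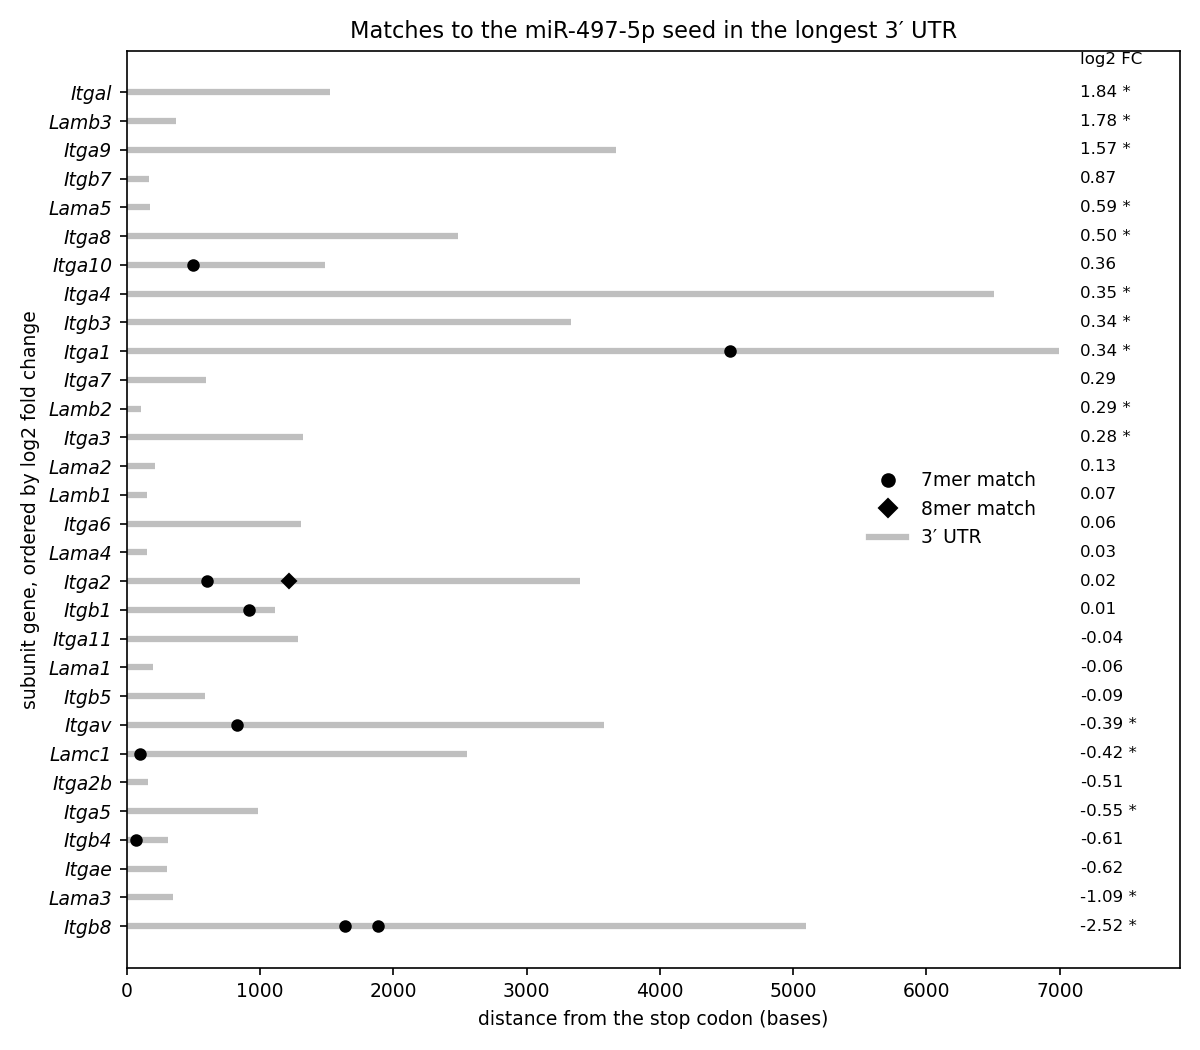
Longest annotated 3′ UTR of 30 of the 31 tested subunits as a grey line from the stop codon, in bases, with circles for 7mer and diamonds for 8mer matches to the miR-497-5p seed (1 circle for the repeat run in Itgav); genes are ordered by log2 fold change, printed at the right with an asterisk where the adjusted p is under 0.05. Matches stand in the upper, middle and lower parts of the order, and Itga5 has none.

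Genes for proteins that link integrins to the cytoskeleton changed in RNA level in both directions. Of 43 listed genes of the adhesion machinery, 41 were tested, of which 16 were higher and 16 lower (edgeR adjusted p under 0.05, background 23.8% and 26.0% of all tested genes), with a median log2 fold change of 0.04 next to -0.02 for all genes. Of the 4 tested talins and kindlins, which switch integrins on from the inside, 3 were lower (75%, next to 26.0% of all tested genes), here named after their values were seen: Tln1 (log2 fold change -0.37, SE 0.0640, edgeR adjusted p = 0.00012), Fermt2 (log2 fold change -0.35, SE 0.0605, edgeR adjusted p = 0.00012) and Tln2 (log2 fold change -0.27, SE 0.0998, edgeR adjusted p = 0.031). Of the genes that met the naming rule, Tns3, a tensin that links beta chains to actin, rose from 110.2 ± 3.21 to 351 ± 8.36 CPM (log2 fold change 1.67, SE 0.0520, edgeR adjusted p = 3.1e-13). Itgb1bp1, a cytoplasmic inhibitor of Itgb1 activation, rose from 17.0 ± 1.57 to 35.3 ± 4.33 CPM (log2 fold change 1.06, SE 0.0990, edgeR adjusted p = 1.6e-07), with 16.9% of its exon sequence shared with genes on the other strand. Ptk2b, a kinase related to focal adhesion kinase, rose from 12.2 ± 0.859 to 25 ± 1.55 CPM (log2 fold change 1.03, SE 0.0941, edgeR adjusted p = 1.2e-07), while Ptk2, focal adhesion kinase itself, was not called (log2 fold change 0.04, SE 0.0496, edgeR adjusted p = 0.56).

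The 3 largest falls of that list were in Zyx, a sensor of tension at adhesions, from 208 ± 3.3 to 107 ± 8.51 CPM (log2 fold change -0.95, SE 0.0591, edgeR adjusted p = 1.2e-09), in Vcl, the vinculin that reinforces talin, from 298 ± 20.8 to 212 ± 19.6 CPM (log2 fold change -0.49, SE 0.0676, edgeR adjusted p = 1.3e-05), and in Ccm2, a partner of Krit1, which in turn binds Itgb1bp1, from 189 ± 3.10 to 142 ± 3.13 CPM (log2 fold change -0.42, SE 0.0495, edgeR adjusted p = 2.3e-06). Genes on the other strand overlap 25.5% of Vcl exons and 4.38% of Zyx exons. The smaller groups of this list are given as counts, against the 23.8% higher and 26.0% lower of all tested genes. Of the 14 focal adhesion kinases and adaptors, 8 were higher and 3 (Bcar1, Crk and Crkl) lower. Of the 13 tested actin linkers 5 (among them Tns1, Tns3, Flna and Pdlim7) were higher and 6 lower. In the complex of ILK, PINCH and parvins, which ties beta chains to actin, Parva was higher and Ilk and Parvb were lower, of 6 tested. Genes on the other strand overlap 89.7% of Ilk exons, so without the strand setting its counts may come from those genes. All 4 tested inactivators and cytoplasmic partners changed, Itgb1bp1 and Sharpin upwards and Ccm2 and Krit1 downwards. Ptk2 and the genes given here without values were likewise named after their values were seen.

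Among laminin partners of the basement membrane and cell surface, Agrn, Sparc and Sdc3 had the largest falls. Of 18 listed genes, all tested, 2 were higher, 7 lower and 9 not called, and the list had a median log2 fold change of -0.06. The 50% called is near the 49.8% of all tested genes, and by direction 11.1% were higher and 38.9% lower, next to 23.8% and 26.0%. Agrn, the heparan sulfate proteoglycan agrin, which binds laminin gamma chains, fell from 240.5 ± 7.32 to 91.3 ± 6.39 CPM (log2 fold change -1.40, SE 0.0586, edgeR adjusted p = 1.2e-11). Sparc, which binds basement membrane collagen, fell from 5791 ± 270.4 to 3182 ± 161 CPM (log2 fold change -0.86, SE 0.0652, edgeR adjusted p = 1.2e-08), and Sdc3, a syndecan, fell from 86.2 ± 4.08 to 51.5 ± 2.82 CPM (log2 fold change -0.74, SE 0.0652, edgeR adjusted p = 7.5e-08); genes on the other strand overlap 7.73% of Sdc3 exons. Col4a2 rose from 2387 ± 188 to 2834 ± 142 CPM (log2 fold change 0.25, SE 0.0675, edgeR adjusted p = 0.0056) and Npnt, a ligand of Itga8, rose from 16.3 ± 2.09 to 20.6 ± 1.30 CPM (log2 fold change 0.33, SE 0.103, edgeR adjusted p = 0.013), but Col4a2 lost its call without NC library 2 (edgeR adjusted p = 0.072) and Npnt without NC library 1, NC library 3 or miR-497 library 1 (edgeR adjusted p = 0.051 to 0.056). Without NC library 1, and likewise without NC library 2, only 1 gene of this list was called higher. Also chosen after seeing values, Nid1, the nidogen that binds Lamc1, was not called (log2 fold change -0.01, SE 0.0611, edgeR adjusted p = 0.94), nor was Dag1, the laminin receptor dystroglycan (log2 fold change 0.06, SE 0.0639, edgeR adjusted p = 0.5).

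Other integrin ligands were split. Of 24 listed ligands, 22 were tested, 8 were higher (36.4%) and 9 lower (40.9%), next to 23.8% and 26.0% of all tested genes, with a median log2 fold change of -0.07. Edil3, an RGD protein of the endothelial matrix, rose from 8.44 ± 0.296 to 24.8 ± 1.98 CPM (log2 fold change 1.56, SE 0.0985, edgeR adjusted p = 1.5e-09), Col1a2 rose from 129 ± 5.96 to 286 ± 26.3 CPM (log2 fold change 1.15, SE 0.0655, edgeR adjusted p = 4.4e-10) and Fbln2 rose from 26.1 ± 2.89 to 50.9 ± 3.03 CPM (log2 fold change 0.96, SE 0.0845, edgeR adjusted p = 7.5e-08). Ccn2, a ligand of several integrins, fell from 444 ± 4.64 to 173 ± 10.1 CPM (log2 fold change -1.36, SE 0.0555, edgeR adjusted p = 8.8e-12); 23.2% of its exon sequence overlaps genes on the other strand. Fbln5 fell from 5.01 ± 0.306 to 2.79 ± 0.474 CPM (log2 fold change -0.85, SE 0.207, edgeR adjusted p = 0.0026) and Col3a1 fell from 27.8 ± 2.38 to 16.0 ± 2.83 CPM (log2 fold change -0.79, SE 0.114, edgeR adjusted p = 1.9e-05). Named outside the rule and after its value was seen, Fn1, the fibronectin bound by the Itga5 pair, rose from 6186 ± 541 to 8832 ± 537 CPM (log2 fold change 0.51, SE 0.0747, edgeR adjusted p = 2.2e-05), in the opposite direction to Itga5. Neither cell surface ligand that changed rose: Vcam1 and Icam1 were lower, of 5 tested (40%, next to 26.0% of all tested genes), and genes on the other strand overlap 11.7% of Icam1 exons. Col1a1, the partner chain of Col1a2, is on this list as well as among the mural and fibroblast markers and rose from 61.7 ± 1.69 to 110.4 ± 6.45 CPM; of those markers Acta2 also rose (37.1 ± 1.00 to 70.3 ± 4.71 CPM) and Pdgfrb fell (52.8 ± 3.35 to 40.8 ± 7.13 CPM). The part of such cells in these values was not tested.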

How the data were processed

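RNA-seq counts were analysed for 6 libraries of ADC106 cells, grouped and numbered by sample titles. The authors deposited raw counts per Ensembl gene identifier; STAR 2.5.4b, featureCounts, Subread 1.6.1, edgeR 3.32.1 and GRCm38 are named without roles, per the submitters' processing notes. The annotation release, strand setting and handling of reads aligned to several places are not given in the sources used here. Symbols, lengths and 3′ UTRs came from GENCODE M21 (GRCm38), which matched 55141 of 55401 identifiers.

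The fit used edgeR 4.0.16 in R 4.3.3: filterByExpr (minimum count 10, minimum total 15), TMM, a quasi-likelihood F-test with group as the only term, and Benjamini-Hochberg adjustment over all tested genes at 0.05. SE is the size of the log2 fold change divided by the square root of F. The fit was also run on simulated counts in which few genes changed, evenly up and down, while 49.8% of tested genes were called here. That run therefore does not measure error rates in these data. Tables and figures used Python 3.11.15. Subunits with a mean log2 CPM (0.5 added) of at least 2 were described in full, and the 3 largest rises and falls per list were named. Alternatives were other scalings and filters, DESeq2 1.42.0, limma 3.58.1 voom, the replicate number as a block, and each library left out. The members and lists were chosen with earlier results of these data known. Some genes that the counts include are not reported here.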

Additional observations from a re-analysis of the deposited data

How the results depend on the processing

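The subunits called stayed at 9 to 11 higher and 4 to 6 lower under 13 alternatives, against 11 and 5, and over all genes the counts were 3029 to 3998 higher and 3374 to 3995 lower. Leaving out 1 library at a time gave 10 to 11 higher and 5 to 6 lower subunits, and 1 to 3 higher genes among laminin partners. Of 396 pairs of subunit and alternative, 378 kept direction and call. Itga2b passed the threshold without the filter (-0.51), with voom (-0.54) and without miR-497 library 3 (-0.79). Itgal lost it without the filter (edgeR adjusted p = 0.058) and in 2 fits with a library left out. Changes of sign were seen only in genes not called: Itga11 gave 0.0055 with upper-quartile scaling, and with single libraries left out the log2 fold changes ran from -0.15 to 0.11 for Itga11, -0.064 to 0.065 for Itga2, -0.030 to 0.063 for Itgb1, -0.16 to 0.033 for Lama1, -0.15 to 0.43 for Lama2 and -0.021 to 0.098 for Lama4; the cause was not tested. Subunits with a seed match numbered 5 with the shortest 3′ UTR and 2 with 8mers only, against 10, by construction since fewer bases or words are searched.

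The libraries share replicate numbers, but after subtracting group means, libraries with equal numbers correlated at -0.15, -0.045 and -0.18 across genes, and 0 of 6 libraries correlated best with its own number. With the replicate block 11 subunits were higher and 5 lower, as without it.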
